A study of Rattus norvegicus with 20 samples.

Results

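The outflow tract and the apex of the healthy right ventricle were compared in control rats, on 10 of the 20 arrays of a study of chronic pulmonary embolism (PE). The members are the arrays titled as week 6 vehicle control, 5 from the outflow tract (the base of the ventricle, below the pulmonary valve) and 5 from the apex. They came from male Sprague Dawley rats of about 350 g, 6 weeks after an injection of 0.01% Tween-20 into the right jugular vein. The sample labels give the injected volume as 0.15 ml per 100 g and the design text as 0.01 ml, so the volume is not settled here. All hearts were briefly perfused before the right ventricle was cut in 2, and the labels describe no other treatment of these rats. The other 10 arrays, from the same regions of 5 rats given polystyrene microspheres of 25 micron in Tween-20, are used only for comparison. A growth text names the vehicle for all 20 samples, and the groups here follow the titles and treatment fields. Equal replicate numbers were read as 1 rat. The labels call them biological replicates and do not state this pairing. In the data every array deviated from its group mean most like the array of its own number. Tissue pieces are mixtures, so fewer cells of a type and less RNA per cell cannot be told apart anywhere below.

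The right ventricle pumps blood at low pressure into the lungs. Its outflow tract is a smooth-walled sleeve of muscle that derives from a later source of embryonic heart cells than much of the ventricle, and it borders on valve, great artery and epicardial fat, whereas the apex is a trabeculated muscle wall. Heart muscle keeps contraction going with sarcomere proteins, a calcium store that is emptied and refilled at each beat, and mitochondria that burn mainly fatty acids. The heart also has its own circadian clock, in which Bmal1 and Clock switch on genes of the Per, Cry, Nr1d and Dbp families that in turn shape the rhythm.

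The values are deposited signal intensities of 31042 probe sets, each a group of short probes for 1 transcript, and they represent 14217 genes. The trimmed mean signal was 500.2 on every array. The median signal was 124 to 137.7 on the vehicle apex arrays and 123.1 to 136.1 on the outflow arrays. The 3' to 5' signal ratio of the GAPDH control, a measure of RNA and labelling quality, was 1.44 to 1.83 in the apex and 1.38 to 1.66 in the outflow tract. In PE rats it was 1.47 to 1.67 in the apex and 1.7 to 6.12 in the outflow tract, with 6.12 on replicate 2, 2.2 on replicate 4 and 2.34 on replicate 5. Each vehicle array correlated at 0.9621 to 0.9689 on average with the other 4 of its region, and at 0.9624 to 0.9701 with the arrays of the other region from other rats, so arrays of 1 region were not visibly more alike than arrays of both.

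What the healthy right ventricle gave most signal for was the machinery of contraction and of aerobic energy supply. Of the 100 probe sets with the highest mean signal over the 10 vehicle arrays, 73 had 1 gene symbol and named 69 genes, 20 had several symbols and 7 had none. Their mean signals ran from 29950 to 70891 and made up 14.7% of the summed signal of all probe sets. Of the 69 genes, 14 were on the list of contraction and sarcomere genes, 18 on that of the respiratory chain and citric acid cycle, 6 on that of glycolysis, creatine and oxygen storage, 5 on that of fatty acid uptake and oxidation and 2 on that of calcium handling. Signals also depend on the probes, so no order among these genes is given. Ranked by their lowest instead of their mean signal, 92 of the 100 probe sets were shared.

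Among the sarcomere genes, Tnnt2, the troponin that anchors the calcium switch of the thin filament to tropomyosin, had a mean signal of 55919 ± 3765 in the apex and 56649 ± 4661 in the outflow tract (SD, n = 5 each, as for all such values). Tpm1, the tropomyosin itself, gave 49268 ± 4958 in the apex and 52672 ± 3588 in the outflow tract. Myh6, the fast myosin motor of the rodent heart, gave 48396 ± 2292 and 47722 ± 4657. In each of these 3 genes the values of the regions overlapped. The ventricular myosin light chain Myl2 stood at 43057 ± 2940 in the apex and 43342 ± 2887 in the outflow tract, and the cardiac troponin I gene Tnni3 at 42272 ± 4067 and 43251 ± 3647. Myl3, Tnnc1, Cryab, Ankrd1, Myoz2, Csrp3, Myom2, Myh7 and Acta1 were also among the 100. So was a probe set named for the skeletal muscle myosin Myh1 (31325 ± 3304 and 31959 ± 2907), a near copy of the cardiac myosins, and whether it reads their RNA was not tested.

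The calcium store was represented by its pump Atp2a2 (48405 ± 2921 in the apex and 49303 ± 3249 in the outflow tract) and by Pln, the small protein that restrains the pump (46434 ± 3136 and 44955 ± 2920). Energy genes included COX2 (56851 ± 4010 in the apex and 58013 ± 3828 in the outflow tract) and COX1 (52172 ± 5293 and 51080 ± 4508), subunits of cytochrome oxidase that the mitochondrion itself encodes. By their names, 25 of the 69 genes are nuclear-encoded subunits of the respiratory complexes or the ATP synthase, among them Cox4i1, Atp5f1b and Uqcrc2. Ldhb, the heart form of lactate dehydrogenase, gave 47130 ± 3173 in the apex and 47022 ± 2972 in the outflow tract. Ckmt2, the mitochondrial creatine kinase, Mb, the oxygen store myoglobin, and Slc25a4, which exchanges ADP for ATP, belonged to the same group. Fabp3, the fatty acid carrier of the muscle cytoplasm, gave 43989 ± 4421 and 43116 ± 2398. Lpl, which frees fatty acids from blood lipids, and the oxidation enzymes Acadl, Acadm and Hadhb were the other 4 fatty acid genes. Across the 100 probe sets the largest regional difference was that of Rpl37a, a ribosomal protein gene (log2 difference -0.17), the median size was 0.0357, and for 100 of the 100 the 95% interval lay within 0.5 of 0. None reached an unadjusted p under 0.05 with limma.

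**Figure D1:**
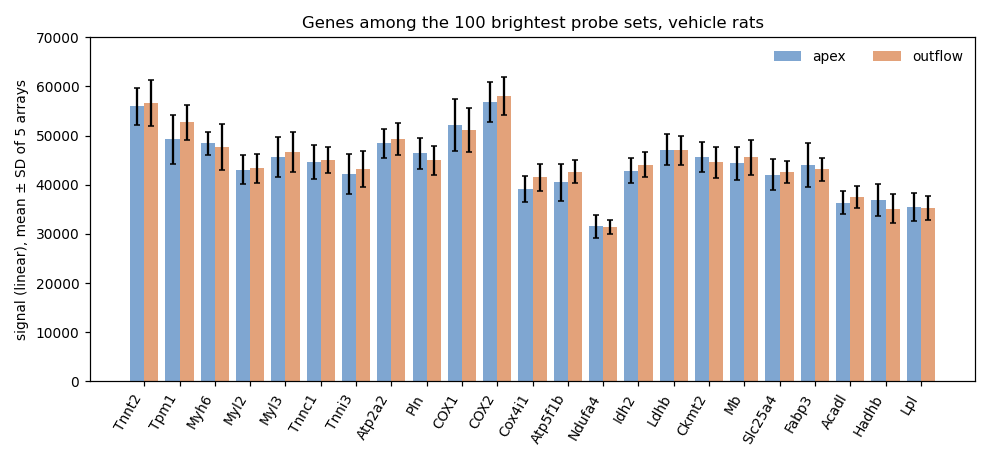
Mean signal (linear axis from 0) of 23 genes among the 100 brightest probe sets, with 1 bar per region over 5 vehicle rats and error bars of 1 SD. The bars of the 2 regions overlap within their SD for each gene shown, from Tnnt2 (55919 and 56649) to Lpl (35472 and 35197).

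The outflow tract and the apex of the same vehicle rat were then compared gene by gene, to ask which transcripts mark the base of a healthy right ventricle. With limma, paired by rat, 0 of 31042 probe sets (0%) passed an adjusted p of 0.05, and the smallest adjusted p was 0.847. Of 15 alternative settings, 11 called 0 and 4 called 1 probe set each. An unadjusted p under 0.05 was reached by 1513 (4.87%), of which 719 (2.32%) were higher and 794 (2.56%) lower in the outflow tract. The median difference over all probe sets was -0.0048 on the log2 scale of the signal plus 16. The data bound how large a regional difference could be. Among the 12076 probe sets whose log2 signal averaged over 8, the 95% interval of the difference lay within 1 of 0 (a 2-fold change) for 12021 (99.5%) and within 0.5 for 9065 (75.1%). Of these 12076, 0 had a measured difference beyond 1 and 26 beyond 0.5, 18 higher and 8 lower in the outflow tract.

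**Figure D2:**
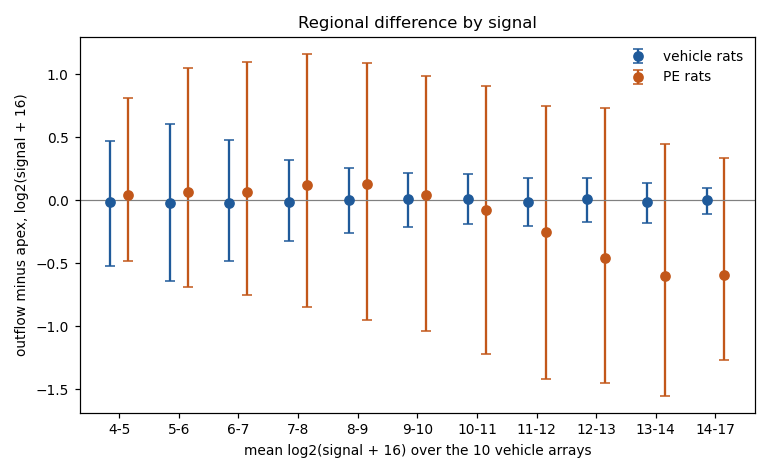
Outflow minus apex on the log2(signal + 16) scale (vertical) in classes of mean log2 signal over the vehicle arrays (horizontal), with the median as a point and the 5th to 95th percentile of probe sets as a bar, for vehicle and PE rats. In the class from 8 to 9 the bar ran from -0.26 to 0.26 in vehicle rats and from -0.95 to 1.09 in PE rats, and the vehicle bar was widest in the class from 5 to 6 (-0.64 to 0.61).

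The genes with the smallest unadjusted p are given as values, since none passed. They were chosen by their p in these same arrays. A lack of overlap between their groups, or 1 direction in all 5 rats, is therefore only a description. Higher in the outflow tract in all 5 rats was Cuedc1, with signals of 263, 194, 248, 287 and 303 in the apex and 345, 365, 489, 325 and 536 in the outflow tract of rats 1 to 5. Its groups did not overlap, and the log2 difference was 0.63 (95% interval 0.26 to 1.0, adjusted p = 0.964). Lztr1, an adaptor that directs RAS proteins to ubiquitin ligases, gave 454, 665, 718, 692 and 549 in the apex and 806, 844, 922, 885 and 1165 in the outflow tract. Here too the groups were apart, with a difference of 0.58 (0.21 to 0.95). Acacb, the acetyl-CoA carboxylase whose product holds back fatty acid entry into mitochondria, gave 224, 332, 177, 306 and 315 in the apex and 386, 380, 299, 353 and 460 in the outflow tract. Its groups overlapped, since rat 3 had 299 in the outflow tract and rat 2 had 332 in the apex, and its difference was 0.47 (0.14 to 0.80). The chromatin gene Gatad2a stood at 0.43 (0.14 to 0.72), the matrix carboxypeptidase relative Cpxm1 at 0.38 (0.12 to 0.65) and the phosphatase Ppp5c at 0.44 (0.12 to 0.75). Ddost, a subunit of the enzyme that adds sugar chains to new proteins, had 0.40 (0.11 to 0.68), and Lbp, which carries bacterial lipopolysaccharide, 0.37 (0.09 to 0.66). The other 4 by this rule, Rexo1, Dcakd, Eif2d and Vsig10l, lay between 0.33 and 0.47. Gatad2a has a second probe set averaging over 8, 1389793_at, which stood at -0.10 (-0.39 to 0.20).

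Lower in the outflow tract in all 5 rats was Chn1, which switches off the small GTPase Rac, with 442, 343, 498, 433 and 475 in the apex and 381, 296, 255, 279 and 287 in the outflow tract. Only rat 1 of the outflow tract exceeded the lowest apex value, that of rat 2, and the difference was -0.53 (-0.88 to -0.17). Creb3l1, a membrane-bound factor that drives collagen secretion genes, gave 323, 319, 251, 408 and 262 in the apex and 242, 188, 217, 201 and 209 in the outflow tract. These groups did not overlap, and the difference was -0.52 (-0.88 to -0.16). Myof, a membrane repair and fusion protein, gave 268, 335, 270, 278 and 282 in the apex and 169, 228, 212, 265 and 201 in the outflow tract, again without overlap, and a difference of -0.40 (-0.70 to -0.10). Etaa1, which activates a replication stress kinase, stood at -0.40 (-0.67 to -0.14), the copper pump Atp7b at -0.35 (-0.61 to -0.09) and the DNA end joining gene Xrcc4 at -0.36 (-0.64 to -0.09). The scavenger receptor gene Ssc5d had -0.34 (-0.60 to -0.08). Gimap7, Pnisr, Cspp1, Cradd and Arl10, the others of the 12, lay between -0.41 and -0.32. The unadjusted p of the 24 genes ran from 0.00574 to 0.0222, and the adjusted p was 0.964 for each. Of the 24, 11 have other probe sets, and in 5 of these (Gatad2a, Lztr1, Rexo1, Vsig10l and Atp7b) another probe set had the opposite sign, on dim probe sets except for Gatad2a.

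Of the 26 probe sets beyond 0.5, 18 had an unadjusted p under 0.05. Among them Daxx, a transcriptional corepressor, was higher in the outflow tract in all 5 rats (218 ± 124 in the apex and 348 ± 62 in the outflow tract, 0.78, interval 0.11 to 1.45) and C13h1orf74 lower in all 5 (423 ± 84.1 and 257 ± 71.5, -0.71, -1.28 to -0.13), both named after their values were seen. Daxx hardly differed between the regions of rat 2 (412 in the apex and 417 in the outflow tract) and rat 3 (249 and 259). In other genes single rats went the other way. Spp1, the matrix and cytokine protein osteopontin, had the largest difference among genes averaging over 8 (-0.86, interval -2.06 to 0.33), and was named after its values were seen. Its signal was 179, 4366, 1422, 183 and 465 in the apex and 137, 1214, 340, 476 and 164 in the outflow tract, so that rat 2 was highest in both regions and rat 4 went the other way. Actg2, a smooth muscle actin also named after its values were seen, gave 269, 905, 203, 243 and 262 in the apex and 540, 312, 724, 785 and 577 in the outflow tract. It was higher in the outflow tract in 4 of 5 rats, with rat 2 reversed (0.79, -0.36 to 1.94). Akt2, a kinase of the insulin pathway named in the same way, was higher in all 5 rats on its probe set 1368832_at (apex 327, 351, 246, 255 and 396, outflow tract 492, 369, 352, 493 and 601), with 0.52 (0.18 to 0.87, adjusted p = 0.964). Its brightest probe set, 1388765_at, stood at 0.14 (-0.14 to 0.42), and the other two, 1387353_at and 1378425_at, at 0.36 (0.06 to 0.65) and -0.38 (-1.05 to 0.28).

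The smallest p in the whole table belonged to Agmat, an agmatinase-like enzyme gene, with 17.5, 9.44, 10.7, 16.3 and 42.1 in the apex and 65.3, 96.5, 79.8, 96.4 and 120 in the outflow tract (1.66, interval 1.25 to 2.07, adjusted p = 0.847). A probe set of Sox4, a transcription factor of outflow tract development, 1375257_at, gave 35, 70.4, 55.2, 68 and 51.2 in the apex and 8.83, 8.48, 7.05, 5.23 and 11.6 in the outflow tract (-1.55, -1.96 to -1.15, adjusted p = 0.847). It passed without the pairing (adjusted p = 0.031), and its mean signal of 8.24 ± 2.35 in the outflow tract lay at the low end of what these arrays report. The brightest of the 7 probe sets of Sox4, 1383137_at, had 1355 ± 414 in the apex and 1317 ± 309 in the outflow tract (-0.02, -0.32 to 0.28), and the other 5 stood between -0.22 and 0.28. The largest difference of all genes was that of Foxl2, a gonadal transcription factor, with 348, 202, 226, 308 and 210 in the apex and 117, 34.7, 30.4, 30.6 and 86.2 in the outflow tract (-1.98, -2.60 to -1.36, adjusted p = 0.964). These 3 probe sets were chosen after their values were seen, so the lack of overlap between their groups is only a description. None passed the main paired test. In alternative limma fits Foxl2 passed with an intensity trend and robust prior (adjusted p = 0.0422), and the Sox4 probe set with the replicate as a random block (adjusted p = 0.0251).

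The regional comparison was next read through 37 lists of genes, with 799 measured members and 743 distinct genes. None of the 37 lists had a member called (0%), and the list medians ran from -0.1108 to 0.1752, against -0.0047 over all genes. By unadjusted p under 0.05, 16 distinct members were higher and 12 lower in the outflow tract, against 250 and 277 of the 14217 genes. Of 472 distinct members averaging over 8, 462 had an interval within 1 of 0 and 360 within 0.5.

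In the muscle lists the differences were small. Of 22 measured sarcomere genes the largest difference was 0.15, the median 0.01, and those with the smallest p were Des (0.10, -0.14 to 0.35), the intermediate filament of muscle, Myom1 (0.15, -0.20 to 0.50), Actn2 (0.11, -0.16 to 0.38) and Tpm1 (0.10, -0.18 to 0.38). Of 19 calcium genes the differences ran from -0.27 for Trdn, which tethers the calcium store's binding protein (interval -0.60 to 0.06), to 0.29 for S100a1, a calcium sensor that aids the release channel (-0.03 to 0.61). The release channel Ryr2 itself stood at 17566 ± 1209 in the apex and 18149 ± 1789 in the outflow tract (0.04, -0.22 to 0.31). The 42 respiratory and citric acid cycle genes had a median of 0.01 and a range of -0.27 to 0.17, and the 31 fatty acid genes a median of 0.04. In the fatty acid list Ppara, the receptor that turns on fatty acid oxidation genes, was higher in the outflow tract in all 5 rats at a low signal (69.5 ± 35.6 against 113 ± 29.2, difference 0.65, 0.22 to 1.08, unadjusted p = 0.00984). Acot1, which splits acyl-CoA, was likewise higher in all 5 (50.8 ± 25.8 against 87.6 ± 14.3, 0.72, 0.22 to 1.21).

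No regulator of outflow tract and right heart development passed. Of 38 measured members 1, Irx5, a patterning factor of the ventricular wall, reached an unadjusted p under 0.05. It was lower in the outflow tract in all 5 rats, with 164, 198, 125, 152 and 136 in the apex and 106, 173, 93, 112 and 115 in the outflow tract (-0.34, -0.61 to -0.08, adjusted p = 0.964), and the groups overlapped. A dimmer probe set of Irx5, 1385914_at, stood at 0.47 (-0.52 to 1.46). Plxna2, a semaphorin receptor of the outflow tract, stood at -0.43 (-0.87 to 0.01) and Gata5, a factor of valve lining cells, at 0.29 (-0.05 to 0.62). Nrg1, a growth factor of the heart lining, stood at -0.40 (-0.94 to 0.14) on the brightest of its 8 probe sets, and 5 of the 8 were higher in the outflow tract. The adrenergic and natriuretic receptor list had a median of 0.10, with the phosphodiesterase gene Pde3a at 1.04 (0.40 to 1.68) from low signals of 19.1 ± 14.3 and 54.4 ± 21.1 and the angiotensin receptor gene Agtr1a at -0.41 (-0.74 to -0.09). A dimmer probe set of Agtr1a, 1369291_at, stood at -0.18 (-0.80 to 0.44). Of 25 ion channels and connexins, the T-type calcium channel Cacna1g was higher in all 5 rats (31.6 ± 23.2 in the apex and 70.1 ± 26.9 in the outflow tract, 0.92, 0.15 to 1.68). Kcnj2, which sets the resting potential, was lower in 4 of 5 (54.4 ± 19.1 and 24.6 ± 19.4, -0.88, -1.65 to -0.10).

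Load-responsive and atrial genes were uneven between rats, and none passed. Nppa, the atrial natriuretic peptide, gave 876, 563, 1588, 435 and 941 in the apex and 364, 1383, 790, 430 and 528 in the outflow tract (-0.36, -1.26 to 0.54), and was chosen after its values were seen. Nppb, the brain natriuretic peptide, gave 5065, 4255, 4951, 3430 and 3612 in the apex and 3003, 6189, 2691, 2056 and 3544 in the outflow tract (-0.37, -0.94 to 0.20). For both peptides 4 of 5 rats were lower in the outflow tract and rat 2 was higher. The atrial light chains were as uneven, Myl7 with 530, 1868, 219, 470 and 368 in the apex and 946, 672, 1596, 434 and 948 in the outflow tract (0.67, -0.70 to 2.04). Myl4 gave 137, 222, 224, 126 and 112 in the apex and 126, 509, 730, 143 and 125 in the outflow tract (0.59, -0.09 to 1.28), with rats 2 and 3 highest in both regions. These are markers of atrial muscle, whose part in any regional difference was not tested.

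Matrix and vessel wall genes had the highest list median, 0.1752 for 27 elastic fibre and arterial smooth muscle genes, with 0 called. Eln, elastin, stood at 763 ± 158 in the apex and 899 ± 166 in the outflow tract (0.24, -0.06 to 0.53), and its dimmer probe set 1395753_at at -0.03 (-0.47 to 0.42). Fbln2, Fbln5 and Actg2 were the others with the smallest p, at 0.21 (-0.07 to 0.49), 0.21 (-0.08 to 0.51) and 0.79. The smooth muscle markers Myh11 (0.23, -0.46 to 0.93), Acta2 (0.40, -0.34 to 1.15), Cnn1 (0.84, -0.61 to 2.30) and Tagln (0.40, -0.78 to 1.59) were each higher in 4 of 5 rats, with intervals that spanned 0. In the matrix list of 50 genes Mfap4, a microfibril protein, was higher in all 5 rats (apex 2987, 3966, 2841, 2923 and 2962, outflow tract 3709, 4241, 4111, 4002 and 3748), a difference of 0.35 (0.07 to 0.62, adjusted p = 0.964). Only rat 2 of the apex reached the outflow values. Comp, a cartilage matrix protein that is also on the valve, cartilage and tendon list, was dim (55.1 ± 27.7 in the apex and 35.8 ± 12.8 in the outflow tract, -0.42, -0.77 to -0.07). On the same list Tnmd, a tendon membrane protein, was higher in the outflow tract in all 5 rats (57.2, 69.1, 30, 29.9 and 28.7 against 62.3, 76.2, 75.5, 80.5 and 63.5, 0.62, 0.15 to 1.09), and Chad, a cartilage matrix protein, in 4 of 5 (15.4 ± 6.72 against 34.4 ± 19.8, 0.61, 0.17 to 1.05). The collagen genes Col1a1 (0.32, -0.18 to 0.82) and Col1a2 (0.28, -0.09 to 0.65) and the fibroblast gene Pi16 (0.41, -0.12 to 0.94) did not pass either, and the medians of the matrix list and of the fibroblast list were 0.0265 and 0.0278.

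Of 23 endothelial and 28 macrophage markers none passed. The endothelial markers Kdr (3611 ± 273 in the apex, 3183 ± 396 in the outflow tract, -0.19, interval -0.45 to 0.08), Pecam1 (-0.11, -0.42 to 0.19) and Vwf (-0.08, -0.41 to 0.25) had intervals within 0.5 of 0. So had the pericyte markers Rgs5 (-0.17, -0.47 to 0.12) and Pdgfrb (0.02, -0.23 to 0.27) and the macrophage marker C1qa (0.03, -0.27 to 0.32). The macrophage marker Csf1r stood at 0.22 (-0.08 to 0.52). The summed signal of the 23 endothelial genes was 78142 to 91435 in the apex and 67236 to 79092 in the outflow tract, which overlap only between 78142 and 79092, and that of the 28 macrophage genes was 17678 to 30879 and 20601 to 31009. Of 8 lymphatic endothelial markers 2 were lower in the outflow tract at an unadjusted p under 0.05, in all 5 rats, Reln (246 ± 44.9 and 193 ± 19.2, -0.32, -0.60 to -0.03) and the dim Nts (19.7 ± 13.7 and 5.5 ± 3.92, -0.66, -1.15 to -0.17). Over all genes, 277 of 14217 were lower at this p. The median of the lymphatic list was -0.096, and that of its 5 members averaging over 8 was 0.0248. Of the markers of other cells, 6 of 19 for lymphocytes, 1 of 12 for mast cells, 2 of 15 for nerve and Schwann cells, 3 of 19 for valve, cartilage and tendon, 0 of 11 for lung epithelium and 5 of 22 for skeletal muscle averaged over 8. The summed signal of the skeletal muscle list was 93091 to 116259 in the apex and 98590 to 121338 in the outflow tract, and it includes Acta1 and the probe set named for Myh1, both described above among the brightest. Of markers that define these cells, Cd3e stood at 42.9 ± 34 and 73.5 ± 17.1, Cpa3 at 142 ± 36.9 and 146 ± 50.8, S100b at 76.4 ± 31.5 and 94.4 ± 26, Acan at 45.7 ± 31.4 and 54 ± 30, Sftpc at 60.1 ± 30.5 and 43.2 ± 22.6, and Myh4 at 14.1 ± 14.7 and 9.51 ± 6.67, apex first. Of 14 conduction system markers 6 averaged over 8, with a summed signal of 5823 to 7559 in the apex and 5396 to 7576 in the outflow tract, while Hcn4, the pacemaker channel, stood at 8.99 ± 6.2 and 6.37 ± 2.67.

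Of 26 fat cell markers 3, all of low signal, were higher in the outflow tract at an unadjusted p under 0.05, against 250 of 14217 genes, and 0 passed. The list median was 0.1555, against -0.0047 over all genes. Adipoq, the fat hormone adiponectin, gave 60.2, 6.62, 14.5, 45.9 and 4.06 in the apex and 52.7, 45.9, 150, 70.8 and 33.1 in the outflow tract (1.11, 0.23 to 1.98, adjusted p = 0.964), higher in 4 of 5 rats. Pck1, the enzyme that makes the glycerol backbone of stored fat, was higher in all 5 rats (19.9 ± 14.5 against 46.8 ± 10.2, 0.89, 0.44 to 1.34). Rbp4, a retinol carrier made by fat cells, was higher in 4 of 5 (9.3 ± 9.72 against 34.3 ± 22.7, 0.93, 0.38 to 1.48). Lep stood at 8.99 ± 10.4 in the apex and 8.36 ± 9.59 in the outflow tract and Plin1 at 36 ± 16.5 and 40.5 ± 12.8. The regions overlapped in both of these fat cell genes, as they did in Adipoq. The summed signal of the list, 83324 to 97127 in the apex and 85990 to 93660 in the outflow tract, is carried by brighter members such as Lpl that muscle and vessels also make. Among autonomic nerve genes Gal, the neuropeptide galanin, was lower in the outflow tract in all 5 rats (85.2, 35.2, 48.9, 12.8 and 27.5 against 7.15, 2.61, 6.94, 9.67 and 6.31, -1.24, -1.91 to -0.58), and Th, which makes catecholamines, was higher in all 5 (64 ± 21.8 against 84 ± 21.4, 0.33, 0.05 to 0.61). Neither passed.

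In PE rats the same 2 regions differed in 8611 of 31042 probe sets (27.7%). This count came from 1 limma fit of all 20 arrays with the rat as a block, which called 0 in vehicle rats. The regional difference itself differed between PE and vehicle rats in 5121 probe sets (16.5%), 2808 with a higher and 2313 with a lower outflow to apex difference under PE. Leaving out PE replicate 4 left 1783 and 1458, and leaving out replicate 5 left 1786 and 1446. The PE outflow arrays also differed in their GAPDH ratio (1.7 to 6.12), whose part was not tested, and leaving out replicate 2, with the highest ratio, gave 3104 and 2921. Of the 743 list genes, 426 were called between the regions of PE rats and 0 between those of vehicle rats. Over all 14217 genes, 3000 were called higher and 2114 lower in the outflow tract of PE rats. The lists were chosen with results of these data known, so the count of list genes is a description. The list medians of PE rats were highest for elastic fibre and arterial smooth muscle genes (0.18 in vehicle, 1.63 in PE rats) and lowest for fatty acid genes (0.04 and -1.28).

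The difference of the 24 regional genes named above had the same sign in PE rats for 14 and was called with the same sign for 3, whereas 8 were called with the opposite sign. The test of the difference between treatments called 11, where it called 3101 of all 14217 genes (21.8%). The 24 were chosen by their vehicle difference, which is part of that contrast, so this is a description. Acacb was at 0.47 in vehicle rats and -1.53 in PE rats, a gap of -2.0 with an adjusted p of 0.00201 in limma. Myof went from -0.40 to 1.14 (a gap of 1.54, adjusted p = 0.00188) and Creb3l1 from -0.52 to 0.89 (1.41, adjusted p = 0.00285). Cpxm1 kept its sign, at 0.38 and 1.84 (1.46, adjusted p = 0.00489).

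**Figure D3:**
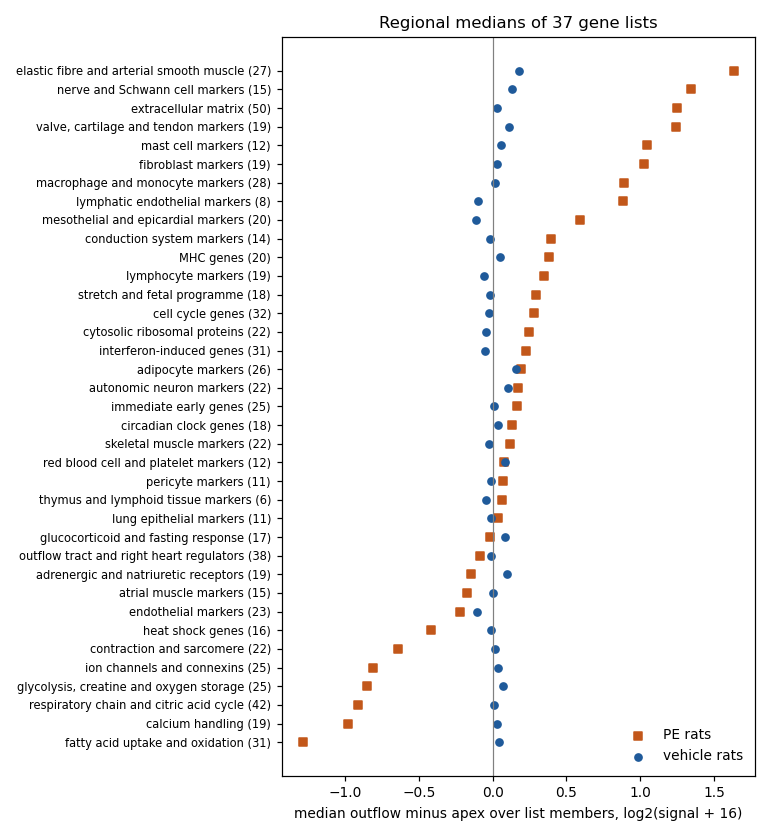
Median outflow minus apex difference over the measured members (number in brackets) of 37 gene lists, on the log2(signal + 16) scale, in vehicle rats (circles) and PE rats (squares). All 37 vehicle medians lay between -0.1108 and 0.1752, while those of PE rats ran from -1.28 for fatty acid genes to 1.63 for elastic fibre and arterial smooth muscle genes.

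The arrays were also read for what varied between the 5 animals. Each rat gave 2 arrays, and a moderated F test in limma asked whether rats differed by more than their 2 regions disagreed. It called 7 of 31042 probe sets (0.0226%) at an adjusted p under 0.05 and 2147 (6.92%) at an unadjusted p under 0.05. The median SD of the 5 rat means was 0.133 on the log2 scale among the 12076 probe sets averaging over 8. The rat and any handling its 2 samples shared cannot be told apart. The number of calls was small and rested on the full set of rats, since 2 remained without any 1 of replicates 1 to 4 and 0 without replicate 5. In PE rats the same test called 2 probe sets (0.00644%) and 2131 (6.86%) unadjusted. Of the 7 vehicle calls, 5 had an unadjusted p under 0.05 between PE rats and 2 were called there too.

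Of the 7 called probe sets, 2 with a single gene symbol belonged to genes of the major histocompatibility complex, which present peptides to T cells and are called RT1 in rats. RT1-Bb, the beta chain of a class II molecule, gave 1644, 2802, 62.6, 1264 and 4177 in the apex of rats 1 to 5 and 1439, 2962, 72.9, 2197 and 4082 in the outflow tract. Rat 3 was low in both regions and the other 4 were high (SD of rat means 2.23, 49.6-fold from lowest to highest rat, adjusted p = 0.0219), and without rat 3 the SD was 0.67. RT1-Ba, the alpha chain of the same molecule, gave 1534, 53.6, 3993, 1499 and 74.7 in the apex and 1352, 96.1, 3036, 2104 and 42.5 in the outflow tract on probe set 1377334_at. Here rats 2 and 5 were low in both regions and the other 3 were high (48-fold, adjusted p = 0.0416).

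Another probe set of RT1-Ba, 1370822_at, gave 1061, 1442, 217, 1000 and 1672 in the apex and 875, 1655, 306, 1368 and 1458 in the outflow tract, so on it rat 3 was low (adjusted p = 0.246). These 2 of its 4 probe sets ordered the rats differently, and the level of RT1-Ba RNA in a rat is uncertain. A second, dim probe set of RT1-Bb, 1371065_at, had rat means of 84.8, 11.7, 59.1, 65 and 14.9 (adjusted p = 0.139), low in rats 2 and 5 and not in rat 3, so the level of RT1-Bb is uncertain too. RT1 genes form a family of similar sequences, and whether these probe sets read 1 gene or several was not tested.

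Cd74, B2m and RT1-Da did not show such gaps. Cd74, the chain that escorts class II molecules, gave 15639, 14703, 14448, 12548 and 18163 in the apex and 15830, 15337, 16991, 17186 and 18366 in the outflow tract, and B2m, the light chain of class I molecules, had an SD of rat means of 0.12, as Cd74 did. RT1-Da, another class II alpha chain, had rat means of 4297, 3908, 4531, 5097 and 5178. The probe sets of RT1-Db1 also ordered the rats differently. Rat means were 929, 996, 1160, 1061 and 1326 on 1370383_s_at, where rat 5 was highest and no rat stood far below. On 1370382_at they were 363, 734, 111, 578 and 703, and rat 3 was lowest. In PE rats, which are other animals, RT1-Bb was called as well (adjusted p = 0.0256), with apex signals of 2374, 3126, 61, 58.2 and 3.46 and outflow signals of 4155, 4288, 36.7, 59.8 and 34.7. There replicates 3, 4 and 5 were low, 3 of 5 animals against 1 of 5 vehicle rats. Cd74, B2m, RT1-Da and RT1-Db1 were picked after their values were seen.

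The probe set with the largest SD of the 7 (3.01), 1370428_x_at, has several gene symbols. It is left unnamed and was not counted above for or against any gene family. It gave 2138, 45.1, 3127, 1790 and 24.8 in the apex and 2064, 75.4, 3355, 1579 and 18.4 in the outflow tract, low in rats 2 and 5 as was 1377334_at of RT1-Ba (86.8-fold, adjusted p = 0.00506). It was called in PE rats as well, with 1463, 53.4, 1625, 1822 and 79 in the apex and 2067, 73.9, 2036, 2846 and 101 in the outflow tract (adjusted p = 0.00274), where replicates 2 and 5 were low. 1375230_at, which has no gene symbol, gave 6094, 10544, 10147, 347 and 6376 in the apex and 6083, 10725, 10566, 270 and 5470 in the outflow tract. Rat 4 was low in both regions (33.1-fold, adjusted p = 0.00506), and without it the SD fell from 2.11 to 0.47. 1385205_at, also without a symbol, was low in rat 1 (30.5 in the apex and 49.6 in the outflow tract) against 208 to 1075 in the other rats (adjusted p = 0.0459). Fcnb, a lectin of granulocytes and monocytes, was dim, with 185 in the apex and 159 in the outflow tract of rat 2 and 7.8 to 20 elsewhere (adjusted p = 0.0459).

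**Figure D4:**
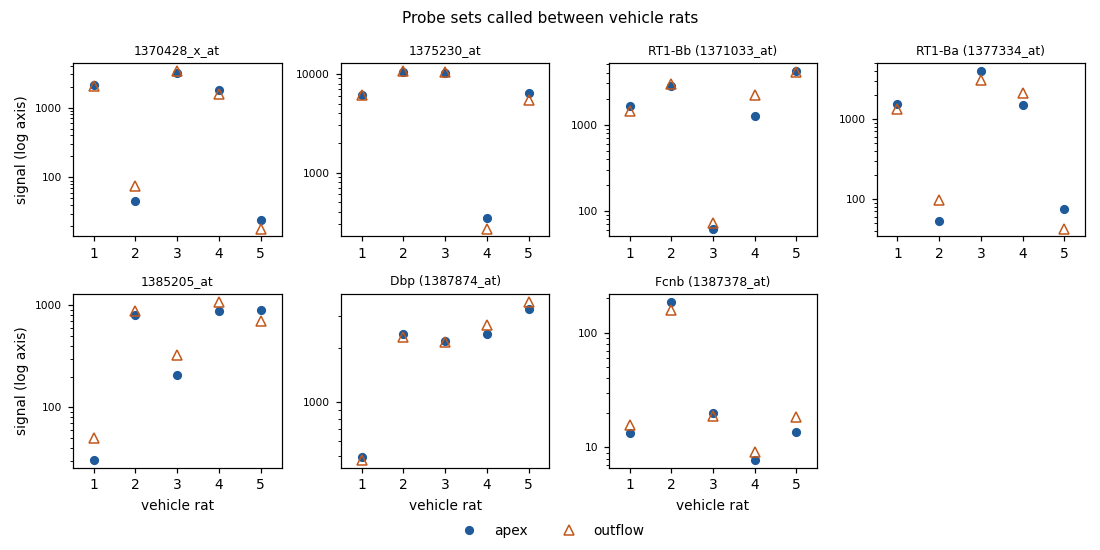
Signal (log axis) of the 7 probe sets called between vehicle rats, with filled circles for the apex and open triangles for the outflow tract of rats 1 to 5. The 2 regions of a rat lie close together while single rats stand apart, such as rat 3 for RT1-Bb (62.6 and 72.9) and rat 1 for Dbp (489 and 473).

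The remaining call was Dbp, a clock-controlled transcription factor of the PAR leucine zipper family. Its signal was 489, 2381, 2173, 2386 and 3310 in the apex and 473, 2299, 2164, 2677 and 3601 in the outflow tract, so rat 1 was low in both regions (6.98-fold between rat means of 481 and 3455, adjusted p = 0.0459). Without rat 1 the SD of rat means fell from 1.10 to 0.29. The call was also lost with each other rat left out, after adding 1 instead of 16, with quantile normalization, with median centring and with array weights.

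The other clock genes set rat 1 apart too, though none of them was called. In the list, 11 of 18 measured members (61.1%) had an unadjusted p under 0.05 between rats, against 811 of 14217 genes (5.7%), and rat 1 was the lowest rat for 12 and the highest for 5. Dbp is counted in these figures. The lists and these genes were chosen with results of the data known, so the counts describe the rats and test nothing. Recognition letters of the clock factors are shown here in the promoters of 3 of these genes, from RefSeq on the assembly GRCr8, each 300 bases from 250 before to 50 after the start of the gene and written 5' to 3' on the gene's strand.

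Bhlhe41 (chr4:180569306-180569605, minus strand), a repressor of the clock activators, is shown with the E-box CACGTG, the site of Bmal1 and Clock, in capitals. Per2 (chr9:99496944-99497243, minus strand), a repressor of the same activators, is shown with the D-box TTATGTAA, the site of Dbp and Nfil3. Bmal1 (chr1:176766078-176766377, plus strand), the activator, is shown with AGGTCA, the half-site of the Nr1d repressors and their ROR rivals.
Bhlhe41: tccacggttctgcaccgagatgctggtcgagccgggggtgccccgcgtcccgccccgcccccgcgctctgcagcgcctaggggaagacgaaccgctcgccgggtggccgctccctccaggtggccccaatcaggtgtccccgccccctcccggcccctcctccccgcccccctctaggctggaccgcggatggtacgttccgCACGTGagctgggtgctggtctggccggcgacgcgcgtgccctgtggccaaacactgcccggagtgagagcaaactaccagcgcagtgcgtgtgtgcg
Per2: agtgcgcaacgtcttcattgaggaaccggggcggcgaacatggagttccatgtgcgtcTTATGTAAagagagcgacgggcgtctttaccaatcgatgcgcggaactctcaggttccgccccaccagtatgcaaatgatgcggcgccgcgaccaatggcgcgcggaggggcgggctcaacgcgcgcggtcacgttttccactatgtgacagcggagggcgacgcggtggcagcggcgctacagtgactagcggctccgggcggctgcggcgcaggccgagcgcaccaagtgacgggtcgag
Bmal1: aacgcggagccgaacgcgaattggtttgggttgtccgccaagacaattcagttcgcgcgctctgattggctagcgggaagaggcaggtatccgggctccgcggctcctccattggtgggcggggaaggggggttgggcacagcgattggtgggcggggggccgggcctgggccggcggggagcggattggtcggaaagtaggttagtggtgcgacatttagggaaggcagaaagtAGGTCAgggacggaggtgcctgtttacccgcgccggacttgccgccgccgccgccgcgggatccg

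The E-box lies 48 bases before the start of Bhlhe41, the D-box 192 before that of Per2 and the half-site 15 before that of Bmal1. On both strands, CACGTG occurs in 6.42% of 33469 promoters of this length and in 3 of the 15 clock genes found in the table, Bhlhe40, Bhlhe41 and Tef. TTATGTAA occurs in 0.89% and in 1 of the 15, and AGGTCA in 16.18% and in 3, Bmal1, Usp2 and Nr1d2. A match of letters is not a measured binding site.

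Rat 1 was lowest for 12 of the 18 genes, among them repressors and outputs of the clock. Per1 gave 151, 716, 794, 617 and 581 in the apex and 176, 751, 656, 528 and 479 in the outflow tract, and rat 1 was below all other rats in both regions (SD of rat means 0.85, adjusted p = 0.243). Per2 gave 275, 945, 1156, 1237 and 1272 in the apex and 322, 1072, 1237, 1013 and 955 in the outflow tract. Its rat 1 values were again apart from the rest (SD 0.83, adjusted p = 0.301). Bhlhe41 had rat means of 808, 2308, 2011, 2660 and 3064, Per3 of 245, 504, 559, 570 and 836, and Tef, a relative of Dbp, of 879, 1391, 1587, 1615 and 1921. Nr1d1, the repressor of Bmal1, had rat means of 1273, 2448, 2258, 2377 and 2963, and the clock-controlled deubiquitinase Usp2 of 1715, 2961, 2981, 3307 and 4429. Usp2 also carried the only unadjusted regional difference of the list (0.35, 0.04 to 0.67, higher in the outflow tract in all 5 rats), and another probe set of it, 1375549_at, stood at 0.03 (-0.29 to 0.34).

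Highest in rat 1 were Bmal1, Clock, Npas2, Cry1 and Nfil3. Bmal1 gave 549, 155, 124, 155 and 100 in the apex and 515, 138, 137, 113 and 77.6 in the outflow tract, with rat 1 above all others in both regions (SD 0.92, 5.26-fold, adjusted p = 0.179). Npas2, a stand-in for Clock as partner of Bmal1, had rat means of 438, 326, 292, 279 and 252, and Clock itself of 1026, 812, 941, 764 and 686. Nfil3, which competes with Dbp for the D-box, had 478, 236, 289, 254 and 354, and Cry1, a repressor that peaks later than the Per genes, 589, 373, 383, 512 and 443. Wee1, a cell cycle kinase, hardly varied (484 to 540 in 4 rats and 461 in rat 2). The hour of tissue collection is not given in the sources used here. Beside Dbp, the members with the smallest p were Bmal1, Per1, Bhlhe41 and Per2, and the others of the list were named after their values were seen.

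**Figure D5:**
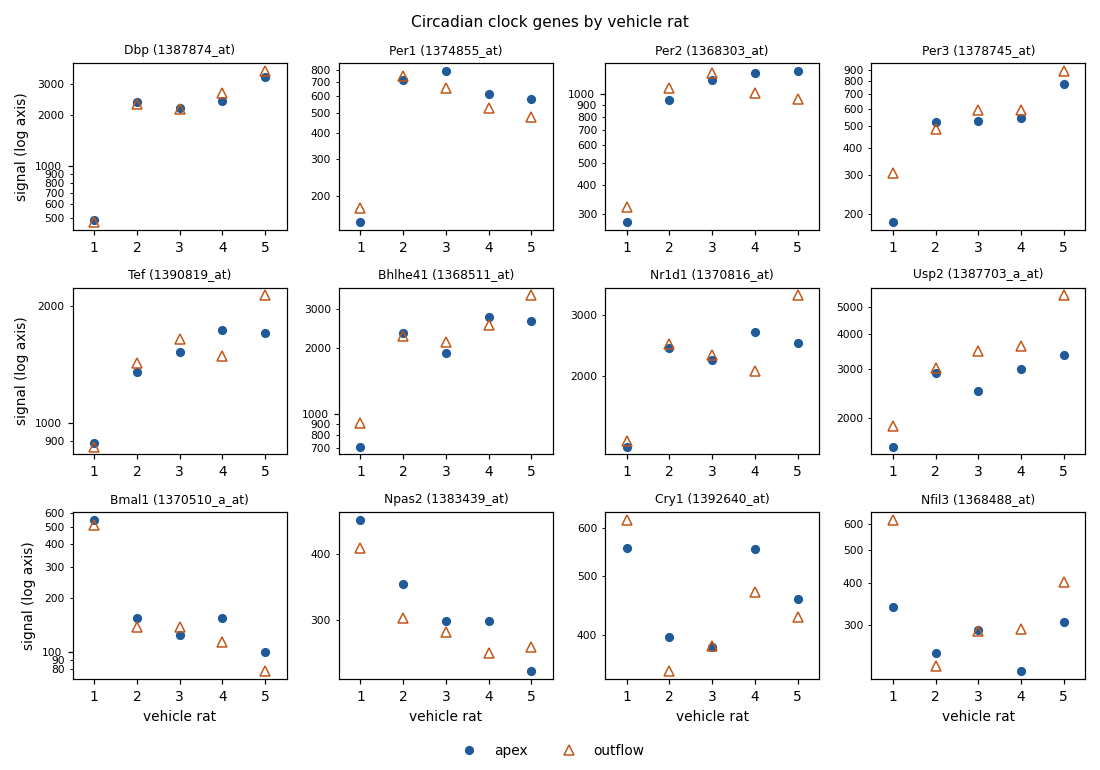
Signal (log axis) of 12 circadian clock genes in vehicle rats 1 to 5, with filled circles for the apex and open triangles for the outflow tract. Rat 1 is lowest for the 8 genes from Dbp to Usp2 and has the highest rat mean for Bmal1, Npas2, Cry1 and Nfil3, with Bmal1 at 549 and 515 against 77.6 to 155 in the other rats.

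In PE rats Dbp was also uneven, with 1334, 902, 2059, 2246 and 2625 in the apex and 993, 721, 2243, 2453 and 3139 in the outflow tract (adjusted p = 0.437 between PE rats). Per2 there gave 740, 396, 1589, 1363 and 1801 in the apex and 881, 410, 1451, 1208 and 1901 in the outflow tract, and Bmal1 297, 330, 98.6, 154 and 70.5 and 434, 243, 176, 117 and 89.5. PE replicates 1 and 2 had the low Dbp and Per2 and the high Bmal1 in both regions. Numbers do not link PE with vehicle rats.

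Immediate early genes, which respond within minutes to stretch, hormones or handling of the tissue, split the rats in another way. Fos gave 903, 367, 785, 107 and 514 in the apex and 1199, 308, 903, 136 and 536 in the outflow tract, lowest in rat 4 and highest in rat 1 (7.72-fold between rat means, SD 1.17, adjusted p = 0.0902). Egr1 gave 1402, 1164, 1702, 587 and 1170 in the apex and 1655, 1210, 1839, 603 and 1150 in the outflow tract, lowest again in rat 4 (adjusted p = 0.301). Of the 25 measured members 8 (32%) had an unadjusted p under 0.05, against 811 of 14217 genes (5.7%), and 0 were called. This count too is a description, since the list was chosen with results of the data known. Rat 4 was the lowest rat for 14 of them and rat 1 the highest for 11. Klf2, a flow-sensitive factor of endothelium, had rat means of 5879, 4451, 6335, 3655 and 3399, and Nr4a1, a stress-induced nuclear receptor, of 866, 604, 855, 448 and 514. Dusp1, a phosphatase that ends kinase signals, had 6618, 5401, 7227, 4574 and 6811. Fosl2, a partner of Jun, was the other gene with the smallest p, and Klf2 and Dusp1 were named after their values were seen.

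Fasting and glucocorticoid genes varied as well, with 8 of 17 (47.1%) at an unadjusted p under 0.05, against 811 of 14217 genes (5.7%), and 0 called. The list was chosen with results of the data known, so the count is a description. This list shares Per1 with that of the clock. Angptl4, a lipase inhibitor induced by fatty acids, had rat means of 284, 252, 805, 435 and 502, and Pdk4, which shuts off glucose oxidation, of 4137, 4376, 10071, 5953 and 5553, both highest in rat 3. Klf9, a glucocorticoid and clock target, had 3291, 5673, 5654, 5516 and 5170, lowest in rat 1, and the kinase Sgk1 had 1213, 1163, 1268, 760 and 788, lowest in rats 4 and 5. So members of 1 list ordered the rats in different ways.

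Sarcomere and mitochondrial genes varied less between rats than genes averaging over 8 as a whole, and so did some other bright groups. Among members averaging over 8, the median SD of rat means was 0.0889 over 22 sarcomere genes and 0.0891 over 42 respiratory and citric acid cycle genes, against 0.1264 over all genes averaging over 8. It was similarly low over 21 ribosomal protein genes (0.0959) and 24 genes of glycolysis, creatine and oxygen storage (0.0981). Over the brightest probe sets, which include sarcomere and respiratory genes, it was 0.0877. It was 0.1204 over 29 fatty acid genes, 0.1216 over 16 heat shock genes, 0.1238 over 18 calcium genes and 0.4276 over 16 clock genes. Whether the low spread follows signal level was not tested. Rat 2 was the lowest rat for 27 of the 42 respiratory genes and 23 of the 31 fatty acid genes, within this small spread. The lowest rat over all 14217 genes was rat 1 for 3092, rat 2 for 2374, rat 3 for 2427, rat 4 for 2696 and rat 5 for 3628.

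Some single genes outside these groups, and the globins below, were picked after their values were seen, and none was called. G0s2, an inhibitor of fat breakdown, gave 5062, 1448, 1744, 985 and 1213 in the apex and 5223, 1255, 1489, 1088 and 1042 in the outflow tract, high in rat 1 (adjusted p = 0.139). Sln, a small inhibitor of the calcium pump that is typical of atrium, gave 3811, 1279, 682, 1480 and 1047 in the apex and 2654, 1415, 645, 1027 and 767 in the outflow tract, also high in rat 1 (adjusted p = 0.301). Cryl1, a sugar-metabolizing dehydrogenase, was high in rat 1 (2902 and 3164 against 957 to 1364, adjusted p = 0.363). Itga1, a collagen-binding integrin, had rat means of 1652, 233, 1560, 1009 and 195, low in rats 2 and 5 (adjusted p = 0.378). Elavl1, an RNA stabilizing protein, was low in rat 4 on 1 probe set (248 and 221 against 1015 to 3017) while its other 2 probe sets had rat means of 2442, 2073, 2170, 1709 and 2232 and of 119, 98.8, 66.1, 97.2 and 94.9.

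Globin signals were highest in rat 1. Hbb, a beta globin, gave 1757, 409, 150, 178 and 147 in the apex and 2037, 222, 357, 123 and 473 in the outflow tract (adjusted p = 0.495). Between the regions Hbb was higher in the outflow tract in 3 of 5 rats (0.33, -0.59 to 1.25). Hba-a3, an alpha globin, gave 242, 118, 146, 20.9 and 56.8 in the apex and 493, 125, 217, 51.3 and 158 in the outflow tract, and was higher in the outflow tract in all 5 rats (0.74, 0.29 to 1.19, adjusted p = 0.964). Alas2, the haem enzyme of red cell precursors, had rat means of 113, 44.9, 44.5, 19.6 and 40.2, whereas those of Slc4a1, the anion exchanger of red cells, were 172, 111, 162, 275 and 159. The summed signal of the 12 red cell and platelet genes was 1448 to 3843 in the apex and 1608 to 4001 in the outflow tract. Rat 1 thus had high globin signals together with low Dbp and high G0s2 and Sln. A single animal cannot show that these vary together, and the part of the globin signals in the others was not tested.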

How the data were processed

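Affymetrix rat arrays measured RNA (5 microgram of total RNA a sample) in the 10 vehicle samples, 1 array each, and in the 10 PE samples. The deposited signal intensities are linear, and each array had been scaled by the authors to a common trimmed mean, 500.2 with 2% trimmed at each end, as the values show. The software that summarised the probes is not given in the sources used here. The table gives no probe-level or detection values, so precision is limited by the number of arrays.

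The 57 control probe sets were left out. Of the 31042 others, GEO's platform annotation gave 20826 exactly 1 symbol, 436 several and 9780 none, and 20758 matched the current rat gene table by Entrez number with 0 symbols changed. A gene is represented by its probe set of highest mean log2 signal over the vehicle arrays, and 16 was added to each value before log2. The outflow and apex of each rat were compared in limma 3.58.1 (R 4.3.3) with the rat as a block, and rats with a moderated F test on the rat coefficients of the same fit. P-values were adjusted by Benjamini-Hochberg over all probe sets and called under 0.05, and intervals are 95%. The regional contrast of PE rats, and its difference from that of vehicle rats, came from 1 fit of all 20 arrays with the rat as a block. For the F test between PE rats, the 10 PE arrays were fitted alone. The pairing was checked by the correlation of deviations from group means over 12310 probe sets, which was 0.181 to 0.275 for equal numbers in vehicle rats and at most 0.0482 for others, and by this check equal numbers pair the samples.

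Members and gene lists were chosen with earlier results of these data known, so lists are described by counts and medians, and no list was tested. By rule the text names the 12 higher and 12 lower genes with the smallest regional p among genes with mean log2 above 8, the called probe sets between rats, genes among the 100 brightest, up to 4 members of each described list with the smallest p, and defining markers of other cell types. Genes named otherwise are said to be. Alternatives were another added value (1 or 64), quantile normalization, median centring, no replicate block or a random one, all 20 arrays in 1 fit, leaving out the 40% dimmest probe sets, an intensity trend with robust prior, array weights and each replicate left out. The F test in PE rats was added after seeing the data. Scripts were tested on simulated data. Figures were drawn with matplotlib 3.10.9 in Python 3.11.15 from tables made with pandas 2.3.3.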

Additional observations from a re-analysis of the deposited data

Results flagged for a closer look

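Among 66 named probe sets, the 5 apex and the 5 outflow arrays of vehicle rats were each searched for 1 array far from the other 4, by Dixon's test, which chance meets in about 1 in 20 groups. It was met in 19 of 132 groups, and in 12 of them the array was that of replicate 1. Many of these probe sets were named because 1 rat stood apart, so this count is not set against chance. In rat 1 the distant values were Dbp at 489 in the apex and 473 in the outflow tract, Per2 at 275 and 322, Bmal1 at 549 and 515, and, in the apex alone, Per1 at 151, Per3 at 183, Bhlhe41 at 707 and Nr1d1 at 1250. In its outflow tract Cryl1 stood apart at 3164 and G0s2 at 5223, the fat breakdown inhibitor. In rat 2 the distant values were Fcnb at 185 in the apex and 159 in the outflow tract and Myof at 335 in the apex. In rat 3 they were RT1-Bb at 72.9 in the outflow tract and RT1-Ba at 217 in the apex, on its probe set 1370822_at. In rat 4 they were 1375230_at at 347 and 270.

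Of the 24 regional genes named, 11 had an outflow minus apex difference that itself differed between PE and vehicle rats in limma at an adjusted p under 0.05, against 21.8% of all genes and 16.5% of probe sets. These genes were chosen by their vehicle difference, which is part of the contrast, so the count is a description. The difference in PE rats exceeded that in vehicle rats by 1.54 on the log2 scale for Myof, 1.47 for Lbp, 1.46 for Cpxm1, 1.41 for Creb3l1, 1.11 for Arl10, 0.92 for Ssc5d, 0.74 for Cspp1 and 0.57 for Etaa1. It was lower in PE rats by a signed gap of -2.0 for Acacb, -1.39 for Vsig10l and -1.16 for Ppp5c. The PE outflow arrays with high GAPDH ratios enter each of these values, and their part was not tested.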

How the results depend on the processing

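The regional comparison called 0 probe sets in 11 of the 15 alternatives and 1 in each of the other 4: a dim Sox4 probe set without the replicate block (-1.55, adjusted p = 0.031) and with the replicate block as a random effect (adjusted p = 0.0251), 1375472_at after adding 1 (-3.54, 0.0337) and Foxl2, with an intensity trend and robust prior (-1.98, 0.0422). With each replicate left out the count stayed at 0, with a smallest adjusted p of 0.748 to 0.969. For the 24 named regional genes, 360 of 360 checks kept their direction and stayed uncalled. Each of the 24 went 1 way in all 5 rats, so leaving out 1 rat could not reverse it. Fits that change only the block leave the direction as it was. These checks therefore say little about whether the differences are real. The count of probe sets called between rats, 7, was 2 after adding 1, 22 after adding 64, 4 with quantile normalization, 5 with median centring, 5 with array weights, 31 of 18625 without the 40% dimmest and 141 with an intensity trend and robust prior. It was 0 to 2 with a replicate left out and 2 in PE rats. Of 83 checks on the SD of rat means of called probe sets, 39 lost the call. Fcnb fell to an SD of 0.23 without rat 2 and 1385205_at to 0.84 without rat 1. With a PE replicate left out, the regional contrast was called higher in PE rats in 1783 to 3104 probe sets and lower in 1446 to 2921, and without the replicate block in 3056 and 2511. Of the 100 brightest probe sets, ranking by the lowest signal named 70 genes. The cause of these changes was not tested. The median SE of a difference was 0.30 between log2 signals of 5 and 6 and 0.11 above 14, so dim probe sets are less precise.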
